A study of Homo sapiens with 6 samples.

Results

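S100 proteins and annexins are the calcium-binding families followed here, in 4175 cells, which descend from MDA-MB-231, an established human breast cancer line, as its lung-metastatic variant. The members are the genes whose symbol is S100A with a number and at most 1 letter, S100B, S100G, S100P, S100Z, or ANXA with a number, and 32 of the 17687 genes on the arrays met this rule, 20 S100 genes and 12 annexin genes. Each had 1 probe set, and they are all of the 32 protein-coding genes with such symbols in the RefSeq table. The 3 siPGC1alpha arrays held RNA from cells that received siRNA targeting PGC-1alpha (gene PPARGC1A), and the 3 sicontrol arrays held RNA from cells that received control siRNA. In both groups the siRNA was added 24 hours after plating and left for 48 hours, and 10 ng of RNA was labelled per array. The question asked of these genes is which of them depend on PGC-1alpha, a coactivator of transcription best known for driving mitochondrial genes. The labels number the replicates 1 to 3 without saying that they were separate cultures, so a p-value here reflects array-to-array spread that may be technical.

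S100 proteins are small proteins with paired EF-hands, the helix-loop-helix fold that binds calcium. In most of them, though not all, calcium binding exposes a surface through which the S100 dimer grips its partner. Annexins are among the classic partners. Annexins bind phospholipid membranes when calcium rises and serve in membrane repair, endocytosis and exocytosis. S100A10 pairs with annexin A2 and S100A11 with annexin A1, through the amino-terminal tails of the annexins. In breast cancer S100A4 is the member best known for promoting metastasis, and the annexin A2 complex is known for holding plasminogen at the cell surface.

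Signals are the log2 values deposited by the authors. Probe sets of different genes differ in brightness for reasons other than transcript number, so brightness is not read as transcript number. Each gene is set against itself and against control probe sets of the same arrays. For siPGC1alpha replicate 1 the shifts are also set beside those of genes with a like sicontrol mean. A gene is called above background where it exceeded the 95th percentile of the 612 negative control probe sets on all 3 sicontrol arrays, which lay at 5.38 to 5.56. The array of siPGC1alpha replicate 1 stood apart: across genes its Pearson r with the other arrays was 0.585 to 0.604, against 0.995 to 0.996 among those 5, so its values are given apart. The standard deviation over genes was 1.66 on that array and 2.06 to 2.09 on the others. PPARGC1A itself read 7.95, 6.52 and 6.47 on siPGC1alpha replicates 1, 2 and 3, against 6.45, 6.49 and 6.49 on the sicontrol arrays, a difference of 0.019 (SE 0.071) without replicate 1, so its probe set was not lower on any siPGC1alpha array. The line's mesenchymal markers VIM, CD44, AXL and FN1 were above background on every sicontrol array, at means of 12.80, 11.04, 11.63 and 9.22. Of 9 luminal and epithelial markers 6 were also above background, where 75.6% of all genes were. The 6 were KRT8, KRT18, KRT19, EPCAM, GATA3 and ESR1, at means of 11.61, 11.19, 9.40, 7.43, 7.83 and 5.99. CDH1, GRHL2 and PGR were not above it, at 3.97, 4.90 and 2.76.

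Of the 32 genes, 23 were above background on the 3 sicontrol arrays and 9 were not, a split near that of all genes, of which 75.6% were above it. The 9 were S100A7, S100A7A, S100A8, S100A12, S100B, S100G, S100Z, ANXA10 and ANXA13, most of them known from epidermis, leukocytes, glia or gut. Their means ran from 3.37 (S100G) to 5.06 (S100A7A), whereas the other 23 ran from 6.17 (S100A9) to 13.13 (ANXA2). No member had a mean between those 2 ranges.

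The stretches before the transcription starts of these genes differed in a way that the rule did not use. RefSeq promoters of build GRCh38.p14, 250 bases before to 50 after a start, were found for 29 of the 32. The letters TATAAA, the core of a TATA box, were searched at any position on both strands. They occurred in all 7 genes not above background that had a promoter and in 7 of the 22 above it. Among the former, S100A7, S100A7A, S100A8 and S100A12 are neighbours in the order of the S100 genes on chromosome 1. The letters GGGCGG, a GC box bound by Sp1-type factors, occurred in 0 of those 7 genes and in 13 of the 22. All measured genes leaned the same way by less: TATAAA was held by 21.3% of the 3405 not above background and 9.42% of the 10845 above it, and GGGCGG by 39.6% and 73.5%. These motifs were chosen after the levels were seen and are given as a description. Genes with several starts count once if any promoter held the letters, and ANXA2, ANXA11, S100A9 and S100A13 held both. The stretch just before the start is shown for S100A7 (chr1:153460652-153460801, minus strand) and S100G (chrX:16650008-16650157, plus strand), which were not above background, with TATAAA in capitals. For S100A11 (chr1:152037005-152037154, minus strand) and ANXA5 (chr4:121696981-121697130, minus strand), which were, the capitals mark GGGCGG.
S100A7: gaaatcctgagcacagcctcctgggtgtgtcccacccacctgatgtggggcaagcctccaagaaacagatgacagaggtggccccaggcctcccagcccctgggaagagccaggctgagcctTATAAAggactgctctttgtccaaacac
S100G: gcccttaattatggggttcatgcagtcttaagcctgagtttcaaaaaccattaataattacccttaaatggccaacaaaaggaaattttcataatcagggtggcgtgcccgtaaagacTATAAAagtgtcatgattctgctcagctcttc
S100A11: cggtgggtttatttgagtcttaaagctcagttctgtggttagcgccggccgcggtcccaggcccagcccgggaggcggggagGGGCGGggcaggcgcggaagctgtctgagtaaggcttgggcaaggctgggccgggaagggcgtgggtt
ANXA5: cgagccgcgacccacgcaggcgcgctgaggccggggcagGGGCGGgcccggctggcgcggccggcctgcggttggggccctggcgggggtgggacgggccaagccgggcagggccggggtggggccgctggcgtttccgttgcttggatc

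In these stretches TATAAA begins at position -28 from the start of S100A7 and -32 from that of S100G, where a TATA box usually sits. Its positions in the other genes that hold the letters are not given here. PGC-1alpha acts on many mitochondrial genes through the estrogen-related receptors (ERR), whose element TCAAGGTCA, on either strand, was found in 1 member, S100A5, and in 0.353% of all 35116 promoters and 0.344% of the 14250 measured genes with a promoter. Its core AAGGTCA, which the longer element contains, was found in S100A5, ANXA6 and ANXA11, 3 of 29 genes, and, counted the same way, in 4.25% of measured genes (3.92% of all promoters). The AP-1 letters TGACTCA were found in ANXA2, S100A2, S100A3 and S100A5, 4 of 29 genes, and in 5.35% of measured genes (4.95% of all promoters). The S100A5 stretch (chr1:153541810-153541959, minus strand, 1 of 2 promoters) is shown because it holds the full ERR element, in capitals and read on the opposite strand.
S100A5: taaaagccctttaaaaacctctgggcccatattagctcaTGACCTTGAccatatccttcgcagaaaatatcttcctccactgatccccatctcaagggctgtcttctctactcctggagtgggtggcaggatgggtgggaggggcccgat

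S100A5 read 6.46 and 6.33 on siPGC1alpha replicates 2 and 3, against 6.71, 6.39 and 6.17 on the sicontrol arrays. The groups overlapped, and the difference was -0.027 (SE 0.16). S100A5 overlaps S100A4 in the annotation, as S100A7A overlaps S100A8, and how the array divides signal between them was not tested.

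**Figure D1:**
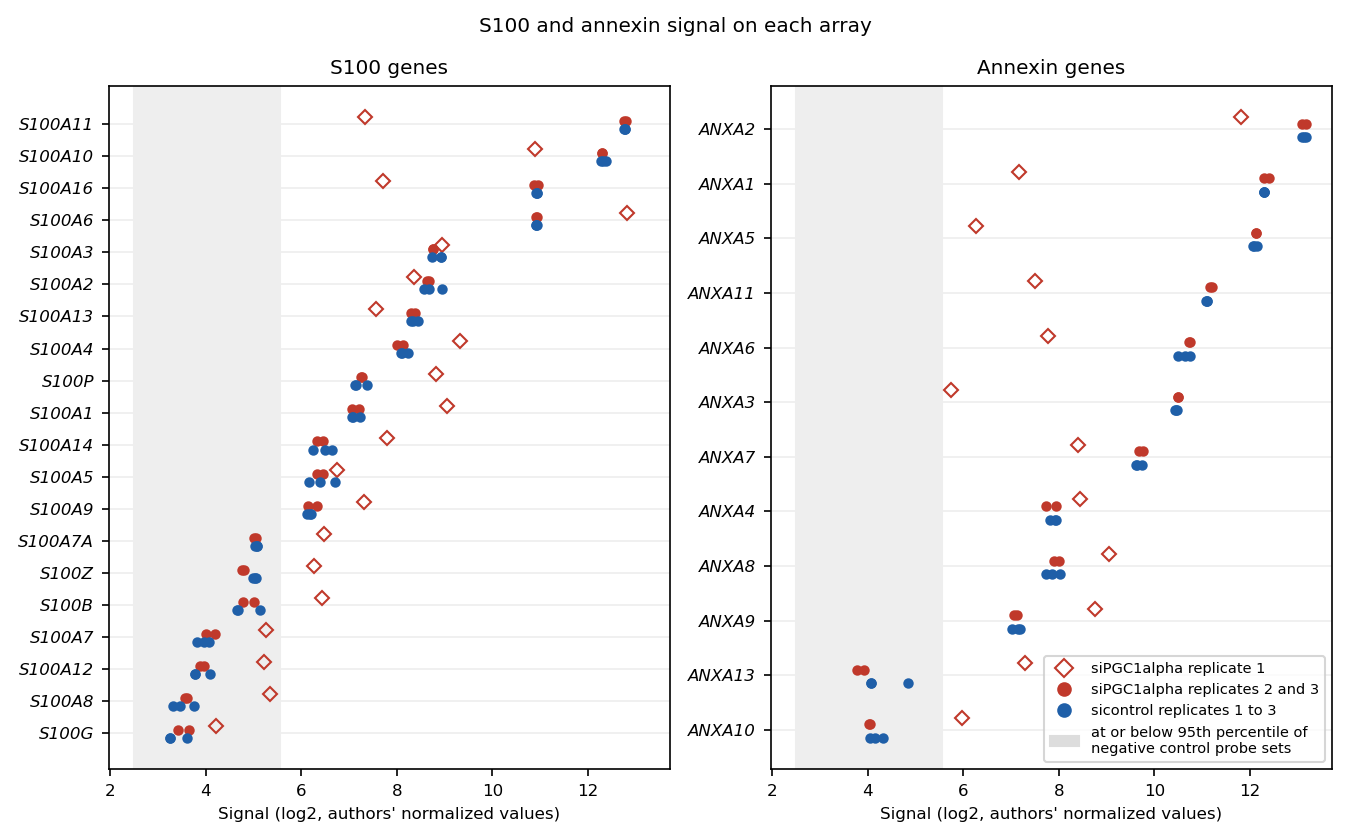
Signal of the 20 S100 genes (left) and 12 annexin genes (right) on each array, on the log2 scale; open diamonds are siPGC1alpha replicate 1, red points siPGC1alpha replicates 2 and 3, blue points the 3 sicontrol arrays. Grey marks signals at or below 5.56, the highest of the 3 sicontrol arrays' 95th percentiles of negative control probe sets. The grey does not apply to siPGC1alpha replicate 1, whose own 95th percentile was 6.57, so diamonds up to that value were not above background. Replicates 2 and 3 lie beside the sicontrol points in every row. Replicate 1 lies to the left for 9 of the 10 genes with a sicontrol mean over 10, S100A6 being the exception.

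Between siPGC1alpha replicates 2 and 3 and the sicontrol arrays, no S100 or annexin gene passed the test. By limma with Benjamini-Hochberg adjustment over all genes, 0 of 32 were called, as were 0% of all genes (lowest adjusted p of a member 0.9998). At an unadjusted p under 0.05 there was 1 member, S100Z, where 4.44% of all genes reached that level. Differences ran from -0.48 (ANXA13) to 0.16 (S100G), with 18 above 0 and 14 below. Their median was 0.0062, beside 0.0080 over all genes, and 25 of 32 lay within 0.1 of 0 in either direction, 78.1% against 66.0% of all genes. The 95% confidence interval stayed within 2-fold either way for 31 of 32 genes, and the exception, ANXA13, reached -1.04. The same 31 also stayed within 1.5-fold. Groups did not overlap for 5 members, ANXA3 and ANXA11 higher and ANXA10, ANXA13 and S100Z lower, where 19.7% of all genes had groups that did not overlap.

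**Figure D2:**
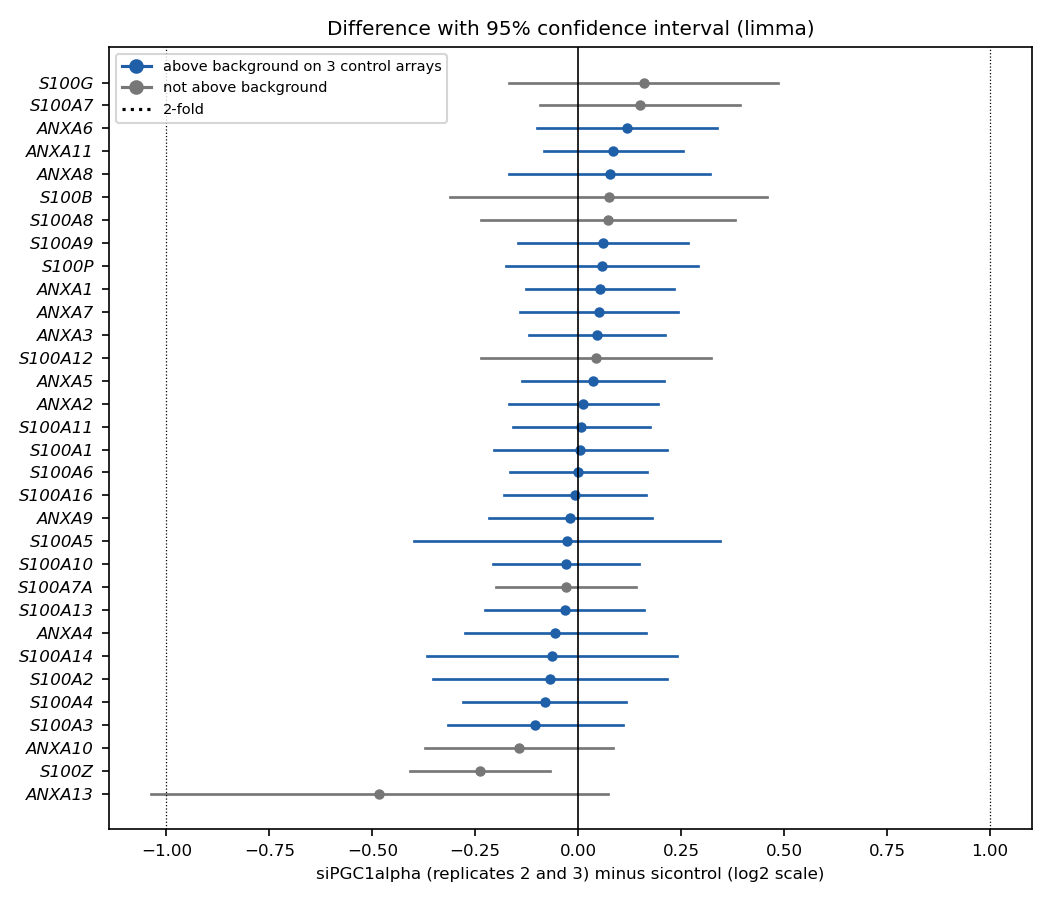
Difference between siPGC1alpha replicates 2 and 3 and the sicontrol arrays for the 32 genes, on the log2 scale, with limma's 95% confidence interval as a bar; blue genes were above background on 3 sicontrol arrays and grey genes were not, and dotted lines mark 2-fold. All bars but that of S100Z cross 0, and the widest, ANXA13, reaches -1.04.

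The S100A10 and annexin A2 pair did not pass the test. ANXA2 read 13.18 and 13.10 on siPGC1alpha replicates 2 and 3, against 13.08, 13.13 and 13.17 on the sicontrol arrays. S100A10, the small subunit of the complex, read 12.29 and 12.29 on those siPGC1alpha arrays, against 12.38, 12.31 and 12.27. Both genes overlapped between the groups, with differences of 0.013 (SE 0.076) for ANXA2 and -0.029 (SE 0.074) for S100A10. RefSeq lists 3 ANXA2 pseudogenes, and their part in the ANXA2 signal was not tested.

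S100A11 and annexin A1, the other classic pair, did not pass it either. S100A11 read 12.76 and 12.80 on siPGC1alpha replicates 2 and 3, against 12.77, 12.77 and 12.78 on the sicontrol arrays (mean 12.77 ± 0.0066, SD, n = 3). ANXA1, a substrate of growth factor receptor kinases that restrains inflammation, read 12.41 and 12.29, against 12.29, 12.30 and 12.29. Its replicate 2 alone lay above every sicontrol array. The differences were 0.0073 (SE 0.070, interval -0.16 to 0.17) for S100A11 and 0.053 (SE 0.075, interval -0.13 to 0.23) for ANXA1. S100A11 has 10 pseudogenes in RefSeq, and their part in its signal was not tested.

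S100A4 and S100A6 lie close to each other on chromosome 1, where 16 of the 20 S100 genes are. S100A4, which binds non-muscle myosin and loosens its filaments, read 8.12 and 8.0 on siPGC1alpha replicates 2 and 3, against 8.12, 8.09 and 8.22 on the sicontrol arrays. Its difference was -0.081 (SE 0.083, interval -0.28 to 0.12), with overlapping groups. S100A6, or calcyclin, a protein abundant in proliferating cells, read 10.91 and 10.93, against 10.94, 10.91 and 10.91. The groups overlapped, and the difference was 0.00042 (SE 0.069, interval -0.17 to 0.17).

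The other S100 genes above background had differences of -0.10 to 0.061, and none passed the test. S100A3, a hair cuticle protein, differed by -0.10 (SE 0.089), S100A2, an epithelial S100 linked to p53, by -0.069 (SE 0.12) and S100A14 by -0.064 (SE 0.13). S100A13, which takes part in the release of FGF1, differed by -0.033 (SE 0.081), S100A16 by -0.0080 (SE 0.072), and S100A1, the S100 protein of heart muscle, by 0.0051 (SE 0.088). S100A13 and S100A1 overlap in the annotation. S100P, named for placenta, differed by 0.057 (SE 0.098). S100A9, which forms calprotectin with S100A8 in neutrophils, differed by 0.061 (SE 0.086), while S100A8 was not above background.

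Among the annexins, ANXA6 had the largest positive difference. ANXA6, an annexin with a duplicated core, read 10.73 and 10.75 on siPGC1alpha replicates 2 and 3, against 10.74, 10.49 and 10.63 on the sicontrol arrays. Sicontrol replicate 1 lay within the siPGC1alpha values, so the groups overlapped, and the difference was 0.12 (SE 0.092, interval -0.10 to 0.34). ANXA11, which links RNA granules to lysosomes, read 11.21 and 11.15, against 11.08, 11.10 and 11.11. Both of its siPGC1alpha values lay above all 3 sicontrol values, with a difference of 0.086 (SE 0.071) that did not pass the test. ANXA3 read 10.50 and 10.50, against 10.46, 10.44 and 10.46, a difference of 0.045 (SE 0.069) that did not pass either. ANXA5, the annexin used to stain phosphatidylserine on dying cells, read 12.13 and 12.13, against 12.14, 12.08 and 12.06. Its groups overlapped, with a difference of 0.036 (SE 0.072, interval -0.14 to 0.21).

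Differences for the remaining annexins above background were 0.051 for ANXA7, 0.076 for ANXA8, -0.019 for ANXA9 and -0.055 for ANXA4. ANXA8 has a near-identical copy, ANXA8L1, with a probe set of its own that read 7.96 and 7.78 on siPGC1alpha replicates 2 and 3, against 7.79, 7.83 and 7.89 on the sicontrol arrays. How the authors' summary divides signal between the copies is not known here.

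The larger differences belonged to genes that were not above background. ANXA13, an annexin of gut epithelium, read 3.77 and 3.91 on siPGC1alpha replicates 2 and 3, against 4.06, 4.83 and 4.07 on the sicontrol arrays. One sicontrol array, replicate 2, was high, and without it the difference was -0.23 in place of -0.48 (SE 0.23, unadjusted p = 0.0783 by limma). S100Z, a little-studied relative of S100P, read 4.76 and 4.81, against 5.05, 5.03 and 5.0, so that its groups did not overlap. Its difference was -0.24 (SE 0.071, unadjusted p = 0.0128 by limma), and it did not pass after adjustment (0.9998). ANXA10, a marker of stomach lining, read 4.02 and 4.04, against 4.32, 4.05 and 4.15, with a difference of -0.14 (SE 0.096). S100G, the vitamin D-induced calbindin of the gut, and S100A7, or psoriasin, had differences of 0.16 (SE 0.14) and 0.15 (SE 0.10) with overlapping groups. S100A8, S100A12, S100B and S100A7A, whose products mark myeloid cells, glia and inflamed skin, differed by 0.072, 0.043, 0.074 and -0.030, also with overlapping groups.

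Most members lay far from the sicontrol mean on siPGC1alpha replicate 1. On that array 20 of the 32 genes lay above the sicontrol mean and 12 below, where 10928 of all 17687 genes lay above and 6759 below. More than 2-fold below were 10 members, where 25.3% of all genes were, and more than 2-fold above were 16 members, where 38.9% of all genes were. The median was -1.29 for the 12 annexins and 1.21 for the 20 S100 genes, against 0.61 over all genes. Over all genes the shift varied with level, with a median of 1.22 for sicontrol means under 5.5 and -2.16 for those over 10. The 2 family medians were not compared at like levels. Replicate 1 was 1 array, so the values are described and not tested. The ERCC spike-in probe sets had a median of 6.50 on it, against 5.04 to 5.11 on the sicontrol arrays, and the 95th percentile of negative controls was 6.57, against 5.38 to 5.56. Their part in these values was not tested.

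Members bright on the sicontrol arrays lay far below them on replicate 1. ANXA5 read 6.26 there, against a sicontrol mean of 12.09 ± 0.045, S100A11 read 7.33 against 12.77 ± 0.0066, and ANXA1 read 7.16 against 12.29 ± 0.0077 (SD, n = 3 each). The signal of S100A11 and ANXA1 was thus 43.3 and 35.0 times weaker on that array, and that of ANXA5, which was not above its negative controls, at least 46.0 times weaker when their 95th percentile is taken as its level. On the log2 scale ANXA11 lay at -3.59 from the sicontrol mean, S100A16 at -3.22, ANXA6 at -2.85 and ANXA7 at -1.27. ANXA3, at 5.74, was not above the 95th percentile of 6.57 either, and its signal was at least 14.8 times weaker. S100A10 and ANXA2 lay together at -1.43 and -1.31. Among the 1581 genes with a sicontrol mean over 10, the quartiles on this array were -3.45 and -0.94, a range that holds S100A10, ANXA2, ANXA6 and S100A16, while ANXA1, ANXA3, ANXA5, ANXA11 and S100A11 lay below it.

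S100A6 went the other way. It read 12.81 on siPGC1alpha replicate 1, against 10.92 ± 0.016 on the sicontrol arrays (SD, n = 3), a difference of 1.89 or 3.71-fold. Of the 1581 genes with a sicontrol mean over 10, 179 lay above that mean on replicate 1, and 1 lay further above it than S100A6. That gene was ZNF706, a zinc finger gene named after its values were seen, at 12.04 against 10.11 ± 0.042. The epithelial keratins KRT19 and KRT8, on the marker list of luminal cells, were also high on that array, at 12.69 against 9.40 ± 0.15 and 12.55 against 11.61 ± 0.072. KRT18, the partner of KRT8, read 7.33 against 11.19 ± 0.018. The median of the 9 luminal markers measured, 6 of them above background, was 7.33 on replicate 1, against 7.32 to 7.53 on the sicontrol arrays. Gene by gene, 7 of the 9 lay above their own sicontrol mean on replicate 1 and 2 below. Their median shift was 0.95, beside 0.61 over all genes, with 4 more than 2-fold above and 1 more than 2-fold below. The part of these markers in the S100A6 value was not tested.

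**Figure D3:**
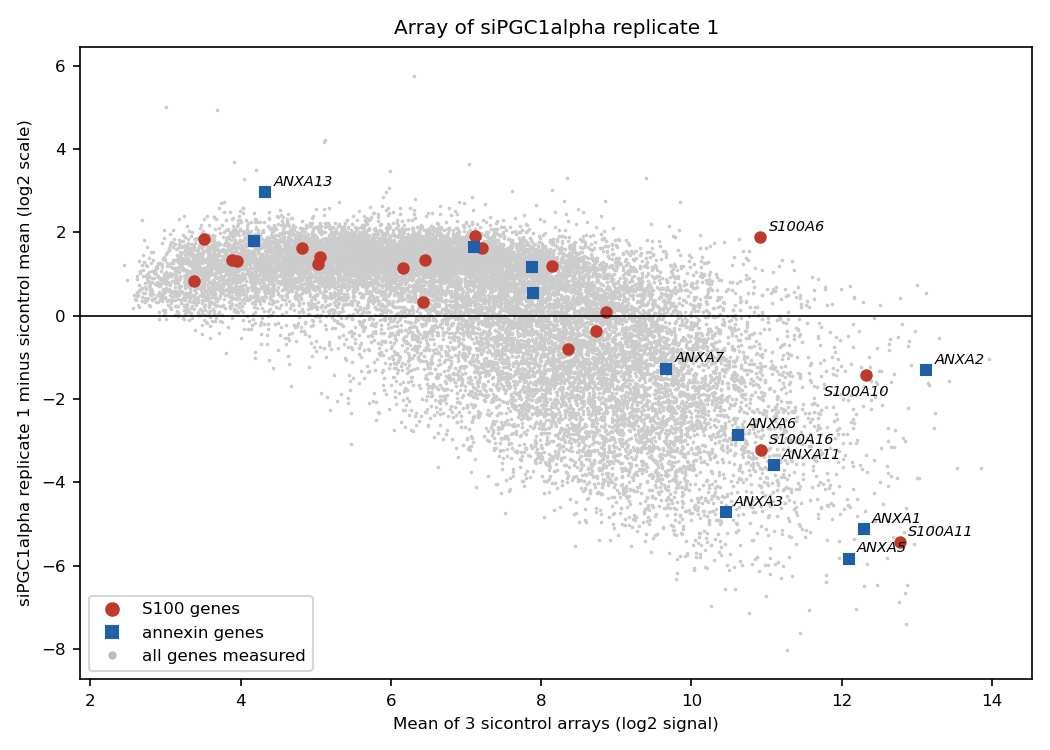
Signal on siPGC1alpha replicate 1 minus the sicontrol mean (log2 scale, vertical) against the sicontrol mean (log2 signal, horizontal) for S100 genes (red), annexins (blue) and all 17687 genes (grey). Of the 10 members with a sicontrol mean over 10, 9 lie below 0 and S100A6 lies at 1.89, and the 9 members with a mean under 5.5 all lie above 0.

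All 9 members with a sicontrol mean under 5.5 lay above that mean on replicate 1, by 0.83 (S100G) to 2.97 (ANXA13), where 3.78% of the 3919 genes at that level lay below it. ANXA13 read 7.29 on it, against 4.06, 4.83 and 4.07 on the sicontrol arrays, and 10 of the 3919 genes lay further above their mean. It was the only one of the 9 above the negative controls of replicate 1, and against those of the sicontrol arrays it was at least 3.49-fold higher. In the range from 5.5 to 8.5, 9 of 10 members lay above the mean, where 30.3% of the 8740 genes at that level lay below it. Highest of the 9 were S100A1 at 1.91, ANXA9 at 1.66, S100P at 1.61 and S100A14 at 1.34. S100A4 lay at 1.18, ANXA8 at 1.18, S100A9 at 1.13, ANXA4 at 0.55 and S100A5 at 0.33. S100A13, at -0.81, was the exception. S100A2, S100A3 and ANXA7, between 8.5 and 10, lay at -0.36, 0.089 and -1.27. ANXA8L1, the copy of ANXA8, lay at -0.18 where ANXA8 lay at 1.18. Across the 32 genes, which share the same arrays and whose sicontrol mean enters both measures, the Pearson r between that mean and the shift on replicate 1 was -0.79, and over all genes it was -0.63.

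Along chromosome 1, genes above and below the sicontrol mean on that array fell partly into runs. In the order of the genes, S100A10 and S100A11 lay at -1.43 and -5.44, and the next 9 genes all lay above 0. Of these, S100A9, S100A12, S100A8, S100A7A, S100A7 and S100A6 lay at 1.13 to 1.89, S100A5 at 0.33, S100A4 at 1.18 and S100A3 at 0.089. S100A2 followed at -0.36, and S100A16 lay at -3.22 beside S100A14 at 1.34. S100A13 and S100A1, which overlap, lay at -0.81 and 1.91. Within the run above 0, S100A12, S100A8, S100A7A and S100A7 were not above background on the sicontrol arrays. They were not above the negative controls of replicate 1 either. Over all genes, 10928 of 17687 lay above the sicontrol mean on that array. The part of the sicontrol level in these runs was not tested. On siPGC1alpha replicates 2 and 3 the 16 S100 genes of chromosome 1 had no comparable shifts, as the plot in gene order shows.

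**Figure D4:**
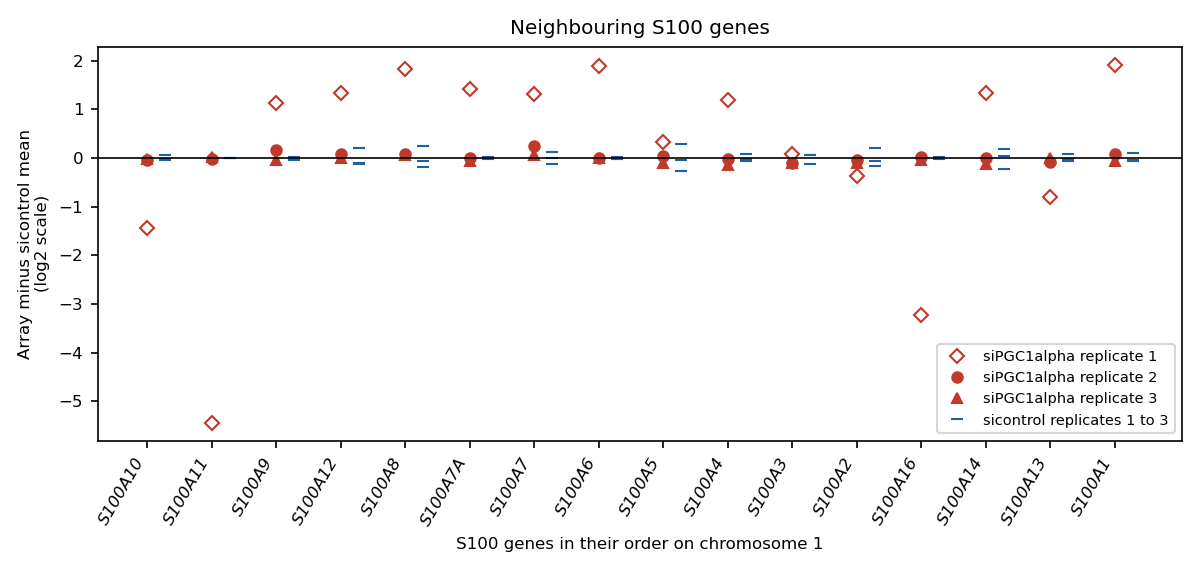
Signal of the 16 S100 genes of chromosome 1, in their order along it, on each array minus the sicontrol mean (log2 scale); diamonds, circles and triangles are siPGC1alpha replicates 1, 2 and 3, and blue dashes the sicontrol arrays. Replicate 1 runs from -5.44 (S100A11) to 1.91 (S100A1), while replicates 2 and 3 stay near 0.

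With replicate 1 included, again 0 of 32 members passed limma's test, as did 0% of all genes (lowest adjusted p of a member 0.663). The groups overlapped for all 32 members, where 7.28% of all genes had groups that did not. Over the 6 arrays the differences carried wide errors. ANXA5 differed by -1.92 (SE 1.59), S100A11 -1.81 (SE 1.48), ANXA1 -1.68 (SE 1.41) and S100A6 0.63 (SE 0.55). The median over members was 0.30, beside 0.19 over all genes, and for 17 of 32 genes the sign turned when replicate 1 was left out. The median half-width of the members' 95% interval was 1.08 with that array and 0.21 without it.

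Genes that work with these families did not pass the test without replicate 1. Of 33 measured partners, comprising receptors, membrane repair proteins, binding partners and genes of plasminogen activation, 0 passed limma's test, with a median difference of -0.0020, 16 above 0 and 17 below. BSG, or basigin, a receptor of S100A9, read 12.24 and 12.20 on siPGC1alpha replicates 2 and 3, against 12.24, 12.23 and 12.29 on the sicontrol arrays. EZR, the cytoskeletal linker ezrin that S100P binds, differed by 0.010 (SE 0.070), CAPN2, a calpain of membrane repair, by -0.0050 (SE 0.074) and PLAU, the urokinase that activates plasminogen, by 0.041 (SE 0.075). The smallest unadjusted p among them belonged to FPR3, a formyl peptide receptor, with a difference of 0.31 (SE 0.099) at a signal below background. Next came PDCD6, a calcium sensor that binds annexins, at 0.18 (SE 0.083). PLG, plasminogen itself, followed at -0.18 (SE 0.087), also at a signal below background, and then S100PBP, which binds S100P, at 0.14 (SE 0.079). On replicate 1 BSG, PLAU and EZR lay at -5.22, -3.50 and -3.01, and CAPN2, which was not above the negative controls of that array, was at least 37.5 times weaker.

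Fused-type S100 proteins, large skin proteins that begin with an S100 domain, and other genes of the epidermal complex beside the S100 genes were also measured. Of 15 genes, 6 were above background on all 3 sicontrol arrays, where 75.6% of all genes were, and 0 passed the test, with a median difference of -0.010. FLG, or filaggrin, differed by 0.0086 (SE 0.070), CRNN by 0.086 (SE 0.10), LORICRIN by 0.029 (SE 0.10) and SPRR1A by -0.17 (SE 0.11). The lowest unadjusted p values were those of FLG2, LCE3D, SPRR3 and SPRR2A, with differences of -0.22, -0.17, -0.37 and -0.16. Of these only LCE3D was above background on all 3 sicontrol arrays, and on sicontrol replicate 1 only just, at 5.545 against 5.534. On siPGC1alpha replicates 2 and 3 it read 5.495 and 5.377, not above the negative controls of those arrays (95th percentiles 5.499 and 5.605). On siPGC1alpha replicate 1, 14 of the 15 genes lay above the sicontrol mean, and FLG lay below it. Over all genes, 3.78% of those with a sicontrol mean under 5.5 and 30.3% of those from 5.5 to 8.5 lay below it. FLG, FLG2 and SPRR2A read 4.49, 4.24 and 5.97 on that array, not above its negative controls. The other genes of this list named here were above them.

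Cell types that make the dim S100 genes were looked for by their markers. Of 7 myeloid markers, 4 were above background, where 75.6% of all genes were. The median of the 7 was 6.43 and 6.50 on siPGC1alpha replicates 2 and 3, against 5.90 to 6.64 on the sicontrol arrays. CSF1R, CD14, FCN1 and MPO were above background, with sicontrol means of 7.60, 7.38, 7.3 and 6.33. PTPRC, LYZ and ITGAM were not above it on all 3 sicontrol arrays, at 4.49, 4.37 and 5.56. The 7 keratinocyte markers had medians of 5.73 and 5.83, against 5.85 to 5.87, the 4 endothelial markers 6.76 and 6.90, against 6.70 to 6.95, and the 4 glial and melanocytic markers 6.46 and 6.35, against 6.22 to 6.50. Above background on all 3 sicontrol arrays were 4 of the keratinocyte, all 4 endothelial and 3 of the glial and melanocytic markers, beside the same 75.6% of all genes. SFN, on the keratinocyte list, had a sicontrol mean of 10.97. What these marker signals reflect was not tested. On replicate 1 these 4 lists had medians of 7.60, 7.13, 7.97 and 7.97, and their part in the shifts of the dim members was not tested.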

How the data were processed

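Per the labels' protocols, 10 ng of RNA per sample was made into sense-strand cDNA and labelled for GeneChip arrays. The authors deposited 1 log2 signal per probe set and array; the log2 scale is inferred from the range, and their background correction and normalization are not known here. Of 24320 probe sets, 17709 carried 1 gene symbol, and the probe set with the highest mean was kept for each of 17687 genes. A further deposited table with 6 columns that match no sample name was not used. Groups were compared on all genes with limma 3.58.1 in R 4.3.3 (lmFit, plain eBayes, no covariates), as siPGC1alpha minus sicontrol, with Benjamini-Hochberg adjustment and a threshold of 0.05, once on 5 arrays without siPGC1alpha replicate 1 and once on all 6. No detection calls were used, and the number of arrays limits the precision. Symbols were checked against RefSeq (GRCh38.p14), where 0 changed. All members are named; of each list, the 4 genes with the smallest unadjusted p and the 4 with the highest sicontrol mean are named. The members, lists and the separate treatment of replicate 1 were chosen with earlier results of these data known. Alternatives covered normalization, dim genes, probe sets, eBayes options, the replicate number as a block, leaving out each array, and a looser threshold of 0.1.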

Additional observations from a re-analysis of the deposited data

How the results depend on the processing

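No member was called by limma under any of the alternatives run, with replicate 1 or without it, and the lowest adjusted p of a member without any 1 array ran from 0.439 to 0.9999. Without replicate 1 the median difference of 0.0062 stayed between -0.011 and 0.033. Over 6 arrays the median of 0.30 was 0.20 after quantile normalization, and -0.17 and -0.34 with only genes above the 25th percentile or the median, which leave 23 and 20 members; without 1 array it ran from 0.0062 (without siPGC1alpha replicate 1) to 0.52. With the replicate block and without siPGC1alpha replicate 1, 0 members and 0 genes were called (lowest adjusted p of a member 0.662). There 1334 genes had an unadjusted p under 0.05 by limma in place of 786. Sicontrol replicate 1 was then alone in its block and did not enter the differences, so this setting in effect also left out that array. Leaving that array out without a block gave 1218 such genes. The correlation of same-numbered deviations was 0.038 on replicates 2 and 3 alone. It was -0.25, -0.18 and -0.086 on all arrays, where the group mean includes siPGC1alpha replicate 1, so the numbers were not read as pairs. Counting genes above background against the ERCC spike-in median again gave 23. That median, 5.04 to 5.11 on the sicontrol arrays, lay below the negative control cut of 5.38 to 5.56. This count could therefore not have come out lower than 23. The comparison with the further deposited table was not run. Differences of the 9 genes not above background rest on signals at the level of the negative controls.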
